A study of Mus musculus with 21 samples.

Results

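The genes described here are those of the ATF4 stress response and of amino acid transport: 37 genes, taken from the deposited table of 56691 genes by gene symbol. Each symbol matched 1 row. Hearts were compared in 4 groups: Control mice without a tumor (n = 5), mice without a tumor given doxorubicin (DOX, n = 5), mice bearing a tumor (Tb, n = 6) and mice bearing a tumor and given doxorubicin (Tb-DOX, n = 5). Doxorubicin, an anthracycline, poisons topoisomerase II in dividing tumor cells and can also injure heart muscle. Tumors were grown from subcutaneously injected 4T1 cells, a mouse breast cancer line, and doxorubicin was injected into the peritoneum once weekly, with normal saline as its control. No genotype, transgene, strain, age or sex is given in the sources used here for any group.

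ATF4 is a transcription factor at the centre of the integrated stress response. When kinases that sense amino acid shortage, unfolded protein, heme lack or viral RNA phosphorylate the translation factor eIF2alpha, most protein synthesis slows while the Atf4 message is translated more, and ATF4 then switches on genes for amino acid uptake and synthesis, for feedback control of the kinases' signal and, with prolonged stress, for cell death. Because that control acts on translation, the level of the Atf4 message is not a measure of the protein, and only messages were measured here. In heart muscle the response is known from mitochondrial disease and from drug injury, and amino acid carriers there also supply glutamine, arginine and taurine to a tissue with a high and constant energy demand.

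Each library held 13521200 to 18601445 reads counted on genes (levels are in FPKM, reads per kilobase of exon scaled to the library's total). The labels give 4T-1 as the source of every library, whereas the study describes hearts. The 8 cardiomyocyte markers summed to 15877.44 to 25883.23 FPKM over the 21 libraries, and the 5 epithelial markers, which include Epcam and Krt8, summed to at most 2.46 FPKM, with Epcam at most 0.33 FPKM in any library. Markers of other cells moved with the groups: the 6 neutrophil markers summed to 1.65 to 4.83 FPKM in Control, 8.43 to 83.98 in DOX, 773.6 to 7226.18 in Tb and 1176.74 to 5648.92 in Tb-DOX, and the 6 macrophage markers to 110.51 to 137.34, 46.78 to 78.65, 152.81 to 228.79 and 98.05 to 264.39. The 7 erythroid markers summed to 251.7 to 1094.02 FPKM in Control and 527.11 to 975.57 in Tb, against 4.77 to 145.57 in DOX and 2.99 to 39.97 in Tb-DOX. The 4 atrial markers summed to 107.92 to 365.99 FPKM in Control and 381.12 to 734.3 in DOX. In Tb they summed to 93.05 to 320.14 and in Tb-DOX to 169.25 to 703.51. The 5 endothelial markers ran, in that order of groups, from 241.43 to 281.72, 156.89 to 213.05, 260.4 to 357.11 and 208.76 to 289.62. The 7 germ cell markers ran from 1.79 to 5.92, 0 to 0.38, 0 to 0.19 and 0 to 5.62. The part of all these cells in the members' changes was not tested. In whole tissue of this kind, fewer cells of a type and less RNA per cell cannot be told apart.

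A few libraries stood apart. Tb-5 (the library labelled Tb, replicate 5) had a summed level of 12 immediate early genes of 655.01 FPKM, against 76.94 to 193.63 in the other Tb libraries, with Fos at 74.55 FPKM and Egr1 at 51.88 FPKM. DOX-4 held Cd3e at 66.73 FPKM, against at most 3.49 in the other DOX libraries, while the other T cell markers were at or near 0 there (Cd3d 0, Cd8a 0.21, Cd4 0.05 and Lck 0.07 FPKM), and it was also the highest DOX library for Atf4, Ddit3, Ppp1r15a, Eif4ebp1, Gdf15 and Slc7a1 among others. Of the 30 members tested, DOX-4 was the highest DOX library for 10 and the lowest for 7, against 14.9% and 26.4% of all genes tested. Control-3 stood apart from the other Control libraries, with a chi-square over its degrees of freedom of 91.1 to 104.1 against each of them (5.95 to 10.1 among the others). It was the highest of its group for 43.5% of all genes tested, as Tb-DOX-4 was for 45.8% and DOX-3 for 41.4%. Without Control-3, 10 members passed in DOX against Control, all but Cebpg and Ppp1r15a of the 12 given below. Member results that rest on Tb-5 or on DOX-5, the libraries with a far higher Atf3 level than all others, are given with and without them. That comparison was chosen after the data were seen.

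The members covered a wide range of levels. Over all 21 libraries, Vldlr, a lipoprotein receptor, had the highest mean (43.5 FPKM), followed by the glutamine and alanine carrier Slc38a2 (38.6 FPKM) and Atf4 itself (36.8 FPKM). Between Slc38a2 and Atf4 the ranges overlapped widely, from 20.35 to 75.42 FPKM and from 23.45 to 97.51 FPKM. The order was not the same in every group: in DOX the means were 52.5 FPKM for Slc38a2, 38.5 FPKM for Atf4 and 27.1 FPKM for Vldlr. The taurine carrier Slc6a6 (18.8 FPKM), the translation repressor Eif4ebp1 (16.4 FPKM) and Ddit3 (12.5 FPKM) came next. Of the 37 members, 30 reached a mean of 0.5 FPKM, as did 13990 genes in all, and were tested. The 7 below it were the serine and proline synthesis genes Phgdh and Pycr1, the secreted factors Gdf15 and Fgf21, and the carriers Slc7a3, Slc7a11 and Slc6a9.

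**Figure D1:**
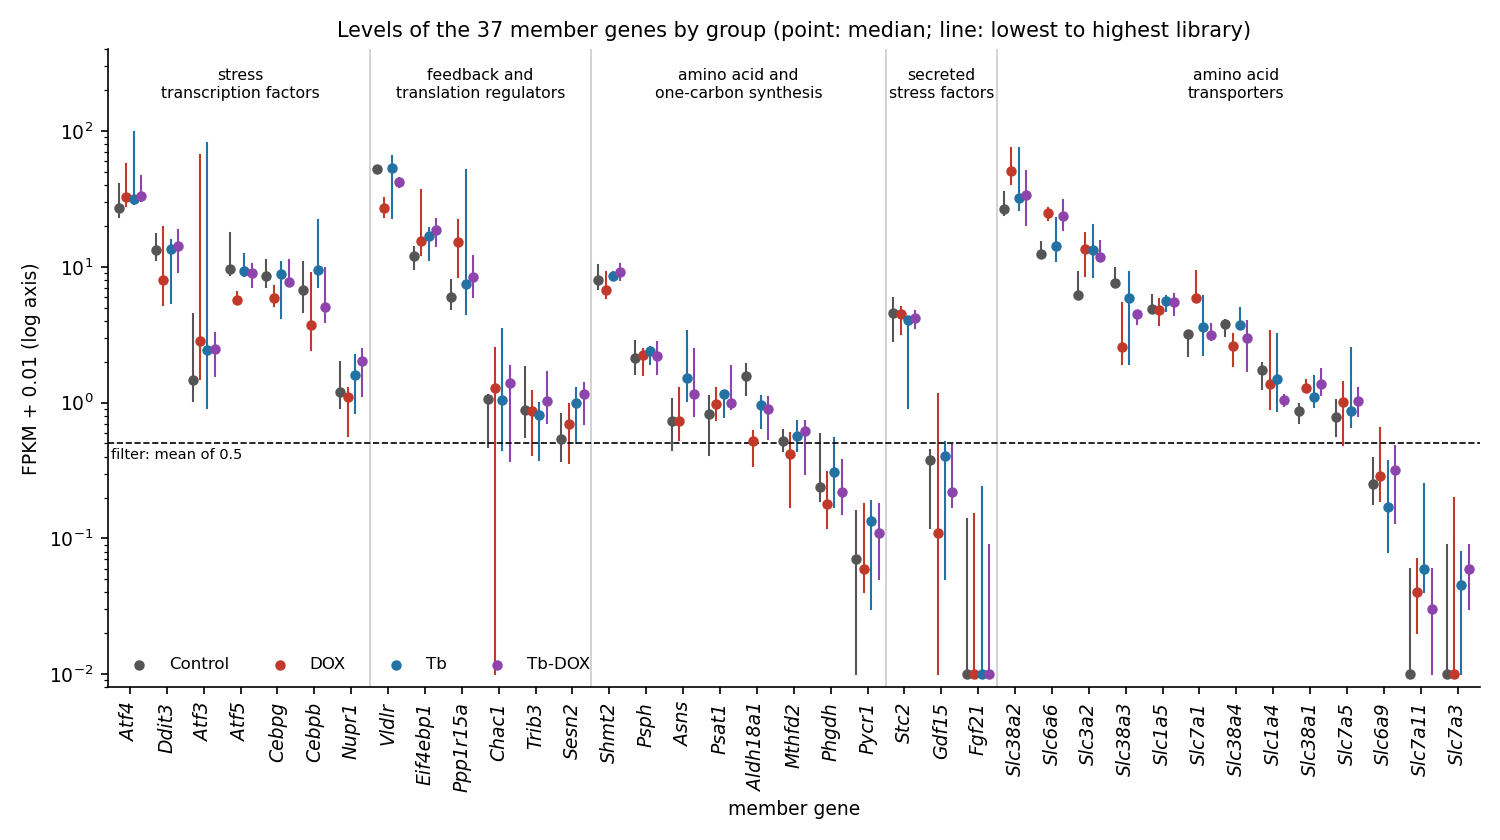
Level of each of the 37 members in FPKM, with 0.01 added, on a log axis, grouped by role and ordered by mean. Points are group medians and lines run from the lowest to the highest library of Control, DOX, Tb and Tb-DOX (n = 5, 5, 6 and 5), and the dashed line is the minimum mean of 0.5 FPKM. The long upper lines of Atf3 in DOX and Tb each end in 1 library, at 66.35 and 81.69 FPKM.

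Without a tumor, doxorubicin changed 12 of the 30 members tested, 7 upward and 5 downward, at an adjusted p under 0.05 (edgeR quasi-likelihood test, Benjamini-Hochberg over all 13990 genes). Of all genes tested, 36.2% passed in this comparison, 18.0% upward and 18.2% downward, so the members' count of 12 is near the background. With a change of at least 1 on the log2 scale as well, 7 members passed against 9.95% of all genes, of which 5 rose against 4.16% and 2 fell against 5.79%. The libraries of both groups did not overlap for 9 members, against 25.2% of all genes, with 5 higher in DOX (6.13%) and 4 lower (19.1%). The median log2 fold change was 0.16 over the members and 0.00 over all genes tested. The changed members were not spread evenly over the roles: of the 10 amino acid carriers tested, 5 rose and 1 fell, while none of the 7 stress transcription factors rose and 2 fell. That contrast between roles was not tested. Without Tb-5, a library of neither group, 2 of the 7 factors rose and 2 fell, and the carriers stayed at 5 and 1. Atf3 and Atf4 were the 2 that rose. Both also passed in a fit of only these groups (edgeR adjusted p = 0.0256 and 0.0284). Fold changes are from counts with TMM scaling, and with library totals alone, as in FPKM, all genes had a median of −0.14 in DOX against Control and 0.18 in Tb-DOX against DOX, so ratios of FPKM differ a little from the fitted values.

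In tumor-bearing mice, doxorubicin changed 1 of the 30 members, the taurine carrier Slc6a6, against 4.72% of all genes tested (2.18% upward and 2.54% downward). No member passed with a change of at least 1 on the log2 scale (1.11% of all genes did), and no member had libraries that did not overlap (4.30% of all genes). The median log2 fold change was −0.11 over the members and −0.02 over all genes. The difference between both doxorubicin effects, tested as an interaction, passed for 6 members, all with a size of at least 1 on the log2 scale, against 8.94% of all genes (3.89% with that size). Upward it passed for 3.95% and downward for 5.0% of all genes. It was negative, with a smaller or opposite effect in tumor-bearing mice, for Slc7a1, Slc3a2, Slc38a2, Ppp1r15a and Atf3, and positive for Aldh18a1.

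**Figure D2:**
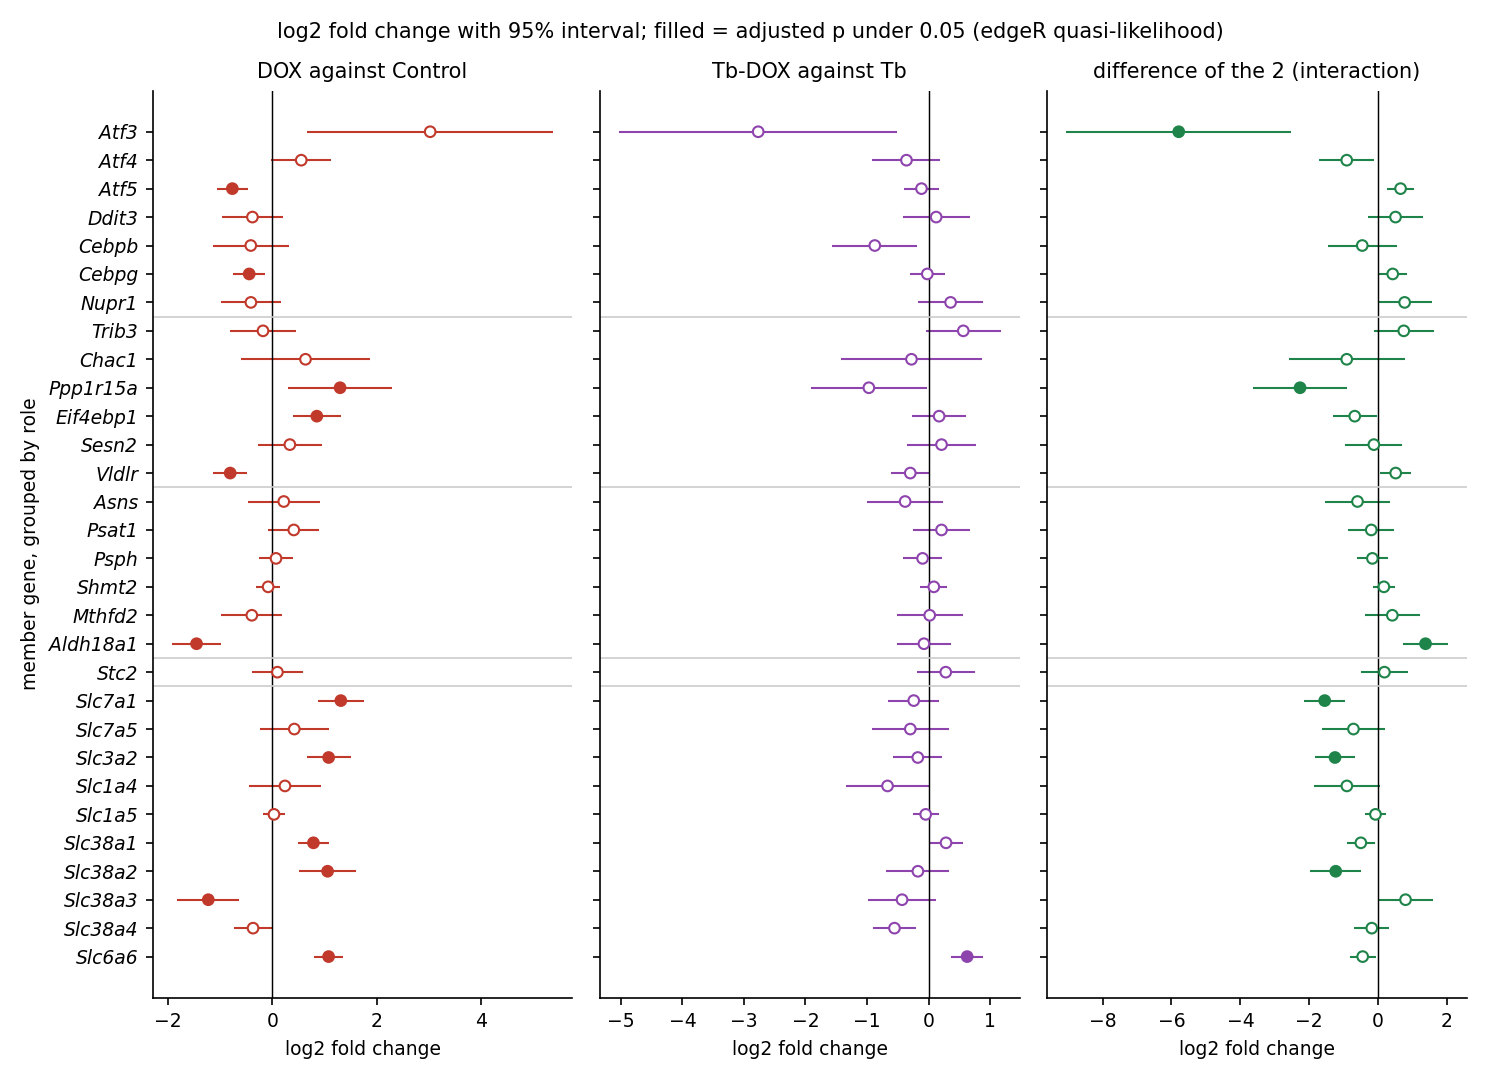
log2 fold changes of the 30 members tested, in DOX against Control, in Tb-DOX against Tb and for the difference of both effects. Points are estimates from the edgeR fit over all 21 libraries, and lines are approximate 95% intervals. Filled points passed an adjusted p of 0.05, and grey lines separate the roles. In the left panel 12 points are filled, in the middle panel 1 and in the right panel 6.

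ATF4 binds DNA together with C/EBP factors at a composite element, TGATGNAA. To set the members side by side in sequence, the RefSeq promoter windows of GRCm38.p6, from 250 bases before to 50 bases after each gene's start, were searched for it on both strands. Windows were given for 30 of the 37 members, and 10 of these held the element, against 3.97% of all 32851 windows and 4.51% of the 27025 genes they belong to: Atf3, Nupr1, Trib3, Chac1, Vldlr, Asns, Pycr1, Fgf21, Slc7a11 and Slc1a4. The members were chosen as genes of the ATF4 response and of amino acid transport, so a share above that of all genes was built into that choice. Among the 12 members that doxorubicin changed without a tumor, 8 had a window, and of these Vldlr alone, which fell, held the element. The 4 that rose and had a window, Slc7a1, Slc3a2, Slc38a2 and Ppp1r15a, did not hold it. Of the 7 tested members that held it only Vldlr passed, where 36.2% of all genes did. The cAMP response element TGACGTCA stood in 1.79% of all windows and, among the members, in that of Ppp1r15a, 12 bases before the start. The stretches below show the element, in capitals, in 4 members that did not pass in DOX against Control, where TTGCATCA and TTACATCA are matches read from the other strand, and the 150 bases before the start of the 3 carriers whose doxorubicin effect differed with the tumor, where the letters are absent. Each is written on its gene's strand.
Asns (chr6:7693210-7693309, minus strand): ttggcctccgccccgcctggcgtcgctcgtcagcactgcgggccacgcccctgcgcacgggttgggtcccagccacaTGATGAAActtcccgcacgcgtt
Chac1 (chr2:119350992-119351091, plus strand): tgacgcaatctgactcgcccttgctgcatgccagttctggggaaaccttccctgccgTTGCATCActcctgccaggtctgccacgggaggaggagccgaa
Atf3 (chr1:191183394-191183493, minus strand): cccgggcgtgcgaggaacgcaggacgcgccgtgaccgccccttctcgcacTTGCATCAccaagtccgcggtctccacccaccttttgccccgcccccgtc
Trib3 (chr2:152344029-152344056, minus strand, just after the start): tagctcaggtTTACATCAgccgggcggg
Slc7a1 (chr5:148399905-148400054, minus strand): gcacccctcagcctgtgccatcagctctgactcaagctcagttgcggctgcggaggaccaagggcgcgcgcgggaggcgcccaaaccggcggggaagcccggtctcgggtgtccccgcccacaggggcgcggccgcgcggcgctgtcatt
Slc3a2 (chr19:8713898-8714047, minus strand): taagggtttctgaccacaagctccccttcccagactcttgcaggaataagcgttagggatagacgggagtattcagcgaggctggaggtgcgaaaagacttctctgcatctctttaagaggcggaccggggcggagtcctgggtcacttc
Slc38a2 (chr15:96699729-96699878, minus strand): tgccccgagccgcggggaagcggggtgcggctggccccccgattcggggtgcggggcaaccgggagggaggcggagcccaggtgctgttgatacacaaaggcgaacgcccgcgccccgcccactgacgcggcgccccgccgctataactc
A match describes letters, not a bound site, and the lack of one says only that these letters are not in this window. The ATF4-responsive element of Slc38a2 is known to lie within the gene, in an intron, outside such a window.

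Atf4 itself (chromosome 15, 80139385 to 80141742, plus strand, in GRCm39 as for the genes below) did not pass in any of the comparisons. Its level was 28.05, 23.45, 40.63, 27.27 and 25.69 FPKM in the Control libraries and 28.16, 31.36, 42.76, 57.58 and 32.39 FPKM in DOX. The 6 Tb libraries ran from 29.05 to 97.51 FPKM with a median of 31.7 FPKM, and the Tb-DOX libraries stood at 33.06, 30.5, 31.8, 46.9 and 33.47 FPKM. All groups overlapped, and 1 library, Tb-5, was far above every other. The log2 fold change was 0.55 ± 0.29 (SE) in DOX against Control, with an adjusted p of 0.147 (edgeR), and −0.36 ± 0.28 in Tb-DOX against Tb (adjusted p = 0.510). Without Tb-5 the estimate in DOX against Control was 0.56 and passed (adjusted p = 0.00672), and without DOX-4 it was 0.35 (adjusted p = 0.390). The fit shares 1 estimate of the spread among all groups.

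**Figure D3:**
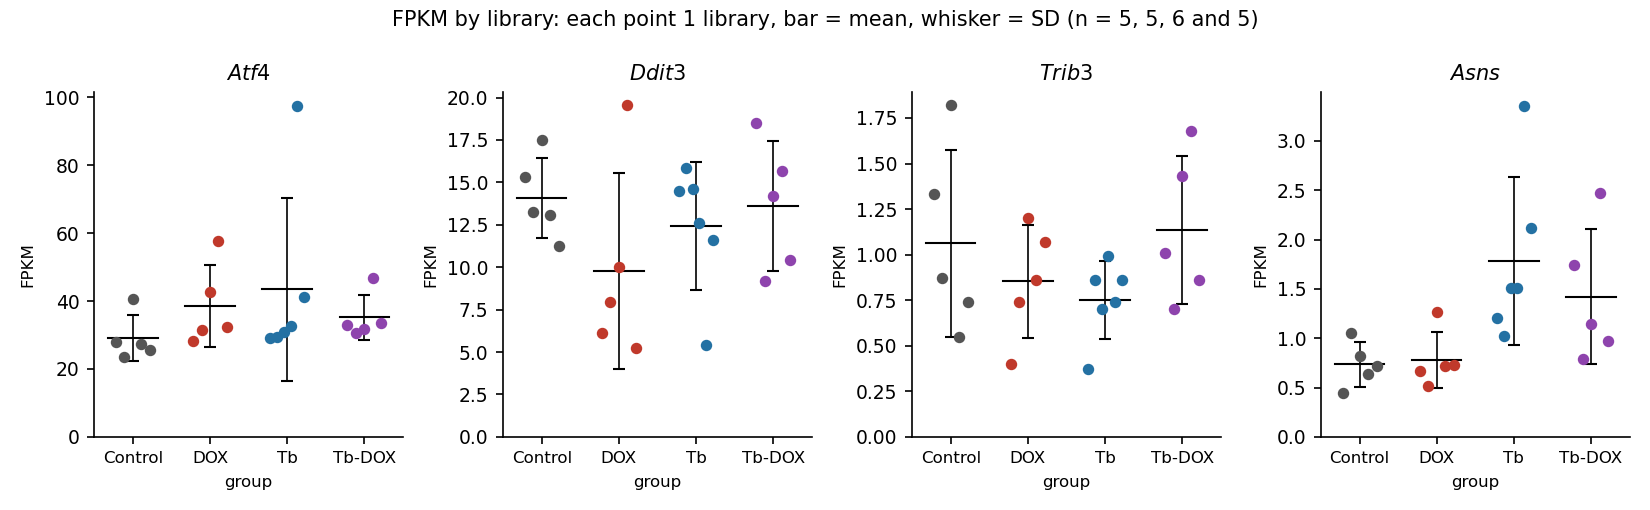
FPKM of Atf4, its partner factor Ddit3 and the target genes Trib3 and Asns in each library of Control, DOX, Tb and Tb-DOX (n = 5, 5, 6 and 5). Bars are means and whiskers SD. The Atf4 point at 97.51 FPKM, the lowest Ddit3 point of Tb and the highest Asns point are all Tb-5.

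Ddit3 (chromosome 10, 127126643 to 127132157, plus strand) encodes CHOP, the C/EBP-family factor that ATF4 induces on the way to stress-driven cell death. It stood at 15.3, 13.23, 17.48, 13.1 and 11.26 FPKM in Control and at 6.1, 7.94, 10.04, 19.55 and 5.21 FPKM in DOX. In Tb it ran from 5.42 to 15.84 FPKM with a median of 13.6 FPKM, and in Tb-DOX it stood at 18.51, 9.21, 14.2, 15.67 and 10.45 FPKM. Of the DOX libraries 4 lay below all Control libraries and 1, DOX-4, above them all. On the log2 scale the change was −0.38 ± 0.29 in DOX against Control, with a 95% interval of −0.96 to 0.20 (edgeR adjusted p = 0.325). Without DOX-4 it was −0.82 and passed (adjusted p = 0.0136), and without DOX-5 it was −0.22 (adjusted p = 0.596). In Tb-DOX against Tb it was 0.12, with an interval of −0.42 to 0.67.

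Atf3 (chromosome 1, 190902493 to 190950236, minus strand), a stress-induced repressor of the same family and a known ATF4 target, had the widest spread of all members. It stood at 4.5, 1.43, 1.01, 2.0 and 1.46 FPKM in Control and at 1.92, 1.49, 2.83, 4.49 and 66.35 FPKM in DOX. The Tb libraries ran from 0.90 to 81.69 FPKM with a median of 2.43 FPKM, and Tb-DOX stood at 3.25, 2.26, 1.55, 2.99 and 2.48 FPKM. In 19 of 21 libraries it was thus between 0.90 and 4.5 FPKM, and the other two, DOX-5 and Tb-5, were at least 66.35 FPKM. Its interaction passed, with a log2 value of −5.79 ± 1.67 (edgeR adjusted p = 0.0353), and was −0.34 (adjusted p = 0.728) without both libraries, so it rests on them. Its log2 fold change in DOX against Control was 3.02 (adjusted p = 0.0537), passed with no minimum level (adjusted p = 0.0237), and was 0.49 (adjusted p = 0.742) without DOX-5.

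In Tb-5 other members stood out with Atf3: Ppp1r15a was 7.21 times, Atf4 3.17 times, Slc7a5 3.01 times, Cebpb 2.60 times and Slc38a2 2.38 times the median of the other 5 Tb libraries, and Stc2, Slc38a3, Ddit3, Vldlr and Cebpg were at 0.222, 0.304, 0.374, 0.421 and 0.468 times it. Tb-5 was apart for genes at large as well. It was the highest Tb library for 10 of the 30 members tested and the lowest for 9, against 20.6% and 43.5% of all genes. For 4 members it was more than 2-fold above the next Tb library, against 2.97% of all genes. The immediate early genes were high in the same library, and their part in these values was not tested. In DOX-5 the immediate early sum was 59.62 FPKM, within the range of the other DOX libraries (58.01 to 105.87 FPKM). Slc38a2 was highest of DOX in that library, at 75.42 FPKM, and Atf4, at 32.39 FPKM, was not.

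**Figure D4:**
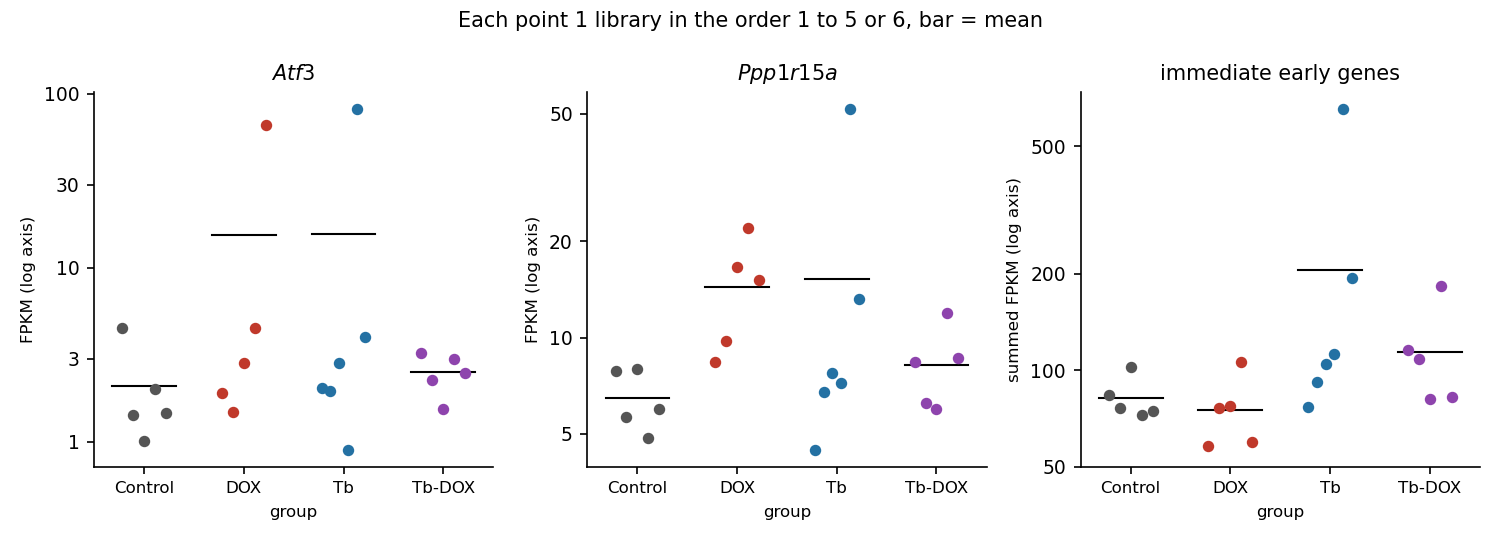
Atf3, Ppp1r15a and the sum of 12 immediate early genes in each library, in FPKM on log axes, with libraries of a group drawn left to right by replicate number and bars at the mean. Tb-5 is the top point of all panels (81.69, 51.81 and 655.01 FPKM), whereas DOX-5 is far above its group for Atf3 (66.35 FPKM) and not for the immediate early genes (59.62 FPKM).

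Among the other factors of this class, Atf5, a relative of ATF4 under the same translational control, fell without a tumor. It stood between 8.66 and 17.59 FPKM in Control and between 5.40 and 6.56 FPKM in DOX, with no overlap, and its log2 fold change was −0.76 ± 0.15 (edgeR adjusted p = 0.000554). Cebpg, a dimer partner of ATF4, fell by 0.44 on the log2 scale (adjusted p = 0.0295). That call was lost in 4 of the 21 fits that left out 1 library: Control-3, Control-4, DOX-1 or DOX-4. In Tb-DOX against Tb neither passed, with log2 fold changes of −0.11 and −0.02, and the interaction of Atf5 had an adjusted p of 0.0501. Cebpb, an inflammation-responsive C/EBP factor, and Nupr1, a small stress-induced chromatin protein, passed in neither doxorubicin comparison, with −0.41 each in DOX against Control and −0.87 and 0.36 in Tb-DOX against Tb.

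Of the feedback and translation regulators, 2 rose and 1 fell with doxorubicin in mice without a tumor. Ppp1r15a (chromosome 7, 45172340 to 45175692, minus strand) encodes GADD34, which brings a phosphatase to eIF2alpha and so ends the response. It stood at 7.85, 5.64, 7.97, 4.85 and 5.97 FPKM in Control and at 8.38, 9.73, 16.67, 22.08 and 15.14 FPKM in DOX, with every DOX library above every Control library. Its range in Tb was 4.46 to 51.81 FPKM with a median of 7.46 FPKM, and in Tb-DOX it stood at 8.41, 6.23, 5.97, 11.93 and 8.64 FPKM, within the range of Tb. Its log2 fold change was 1.30 ± 0.51 in DOX against Control (edgeR adjusted p = 0.0493) and −0.97 ± 0.48 in Tb-DOX against Tb (adjusted p = 0.262). The interaction was −2.27 ± 0.70 (adjusted p = 0.0462). These calls stood close to the threshold: the former was lost in 14 and the latter in 13 of the 21 fits that left out 1 library. Without both DOX-5 and Tb-5 they were 1.27 (adjusted p = 0.000642) and −1.18 (adjusted p = 0.0383).

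Trib3 (chromosome 2, 152179342 to 152185952, minus strand), a pseudokinase that damps ATF4 activity and is among the most responsive of its targets in other tissues, was low in every group. It stood at 1.33, 0.87, 1.82, 0.55 and 0.74 FPKM in Control and at 0.40, 0.74, 1.2, 0.86 and 1.07 FPKM in DOX. The Tb libraries spanned 0.37 to 0.99 FPKM with a median of 0.80 FPKM, and in Tb-DOX it stood at 1.01, 0.70, 1.43, 1.68 and 0.86 FPKM. The groups overlapped, at 12 to 62 reads a library. The log2 fold change was −0.18 in DOX against Control, with a 95% interval of −0.81 to 0.46, and 0.56 in Tb-DOX against Tb, with an interval of −0.04 to 1.17. Chac1, which degrades glutathione and is another sensitive target, ran from 0 to 3.45 FPKM over all libraries and passed in no comparison, with 0.64 ± 0.63 in DOX against Control. Sesn2, which senses leucine and restrains mTORC1, stayed between 0.35 and 1.38 FPKM and also passed in none.

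Eif4ebp1, the repressor of cap-dependent translation that ATF4 induces in pancreatic cells, rose by 0.85 ± 0.23 on the log2 scale (edgeR adjusted p = 0.00732). Its mean was 12.0 ± 1.64 FPKM (SD, n = 5) in Control and 19.7 ± 10.2 FPKM (n = 5) in DOX, where DOX-4 alone reached 36.93 FPKM. Without DOX-4 the log2 fold change was 0.47, and the call was kept in all 21 fits that left out 1 library. Vldlr, which takes up triglyceride-rich lipoproteins into heart muscle and is an ATF4 target in other cells, fell instead. It stood at 48.64 to 54.75 FPKM in Control and at 23.41 to 31.89 FPKM in DOX, with no overlap, and its log2 fold change was −0.81 ± 0.17 (adjusted p = 0.000833). In Tb-DOX it stood at 38.42 to 45.43 FPKM, with −0.30 against Tb (adjusted p = 0.301). Without DOX-5 and Tb-5 that value was −0.44 and passed (adjusted p = 0.0139).

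The genes of amino acid and one-carbon synthesis were mostly low in the heart. Asns (chromosome 6, 7675169 to 7693254, minus strand), which makes asparagine and is the textbook ATF4 target, stood at 0.44, 1.05, 0.82, 0.64 and 0.72 FPKM in Control and at 0.67, 0.52, 1.27, 0.72 and 0.73 FPKM in DOX. In Tb it ran from 1.02 to 3.35 FPKM with a median of 1.51 FPKM, and in Tb-DOX it stood at 1.74, 0.79, 1.14, 2.47 and 0.97 FPKM. Doxorubicin did not change it past the threshold in either state, with log2 fold changes of 0.22 (95% interval −0.47 to 0.91) and −0.38 (−1.0 to 0.24). It was instead higher in tumor-bearing mice without doxorubicin, by 1.26 ± 0.33 against Control (edgeR adjusted p = 0.0233), where the lowest Tb library lay just below the highest Control library. That call was lost without Tb-5 (0.93, adjusted p = 0.0649) and in 5 of the 21 fits that left out 1 library, the others being those without Control-1, Control-3, Control-4 or Control-5.

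Aldh18a1 (chromosome 19, 40538701 to 40576907, minus strand) encodes the mitochondrial enzyme that starts proline synthesis from glutamate. It stood at 1.62, 1.13, 1.56, 1.92 and 1.14 FPKM in Control and at 0.33, 0.47, 0.54, 0.61 and 0.51 FPKM in DOX. Its range in Tb was 0.64 to 1.11 FPKM with a median of 0.945 FPKM, and in Tb-DOX it stood at 0.81, 0.88, 0.93, 0.53 and 1.09 FPKM. Every DOX library lay below every Control library, and every Tb library did too, whereas Tb and Tb-DOX overlapped. On the log2 scale the change was −1.45 ± 0.24 in DOX against Control (edgeR adjusted p = 0.000134) and −0.07 ± 0.23 in Tb-DOX against Tb (adjusted p = 0.886), with an interaction of 1.38 ± 0.33 (adjusted p = 0.0191). Tumor-bearing mice had 0.76 less on the log2 scale than Control (adjusted p = 0.0408), a call lost in 9 of the 21 fits that left out 1 library, Tb-5 among them. The reads behind these values were few, 22 to 107 a library.

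The other synthesis genes did not pass in any comparison. They were Psat1 and Psph, the later steps of serine synthesis, Shmt2 and Mthfd2, the mitochondrial folate enzymes, and their log2 fold changes in DOX against Control were 0.41, 0.07, −0.08 and −0.39. Shmt2 was the most abundant of the class, at 5.86 to 10.42 FPKM. Phgdh, the entry step of serine synthesis, had 4 to 24 reads a library, and Pycr1, the last step of proline synthesis, 0 to 11 reads, and neither was tested at the minimum level used here. In the fit with no such minimum, over 34543 genes, their log2 fold changes in DOX against Control were −0.53 ± 0.49 and 0.24 ± 0.69, and none of the 7 members below the minimum passed in any comparison.

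Of the secreted stress factors, only Stc2, a glycoprotein hormone, was above the minimum level, at 2.81 to 5.93 FPKM in Control and 3.2 to 5.08 FPKM in DOX. It passed in no comparison (0.10 ± 0.25 in DOX against Control). Gdf15, the hormone that signals mitochondrial and toxic stress to the brain stem, had 0 to 30 reads a library, with its highest level, 1.14 FPKM, in DOX-4 and at most 0.50 FPKM in every other library. Fgf21, a metabolic hormone made mainly by liver, had 0 to 4 reads and was at 0 in 16 of 21 libraries.

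The amino acid carriers held 6 of the 12 members that passed. With doxorubicin and no tumor, 5 of the 10 tested rose, against 18.0% of all genes, 1 fell, against 18.2%, and 4 did not pass, with a median log2 fold change of 0.60 against 0.00 for all genes. With a tumor, the same carriers had a median of −0.21 against −0.02 for all genes, and 1 of the 10 passed. That median rests on Tb-5: without it the median was 0.0039 against 0.0038 for all genes, and the median of the interaction went from −0.61 to −0.43. With and without Tb-5 the interaction was negative in 9 of the 10, and it passed downward for 3, against 5.0% of all genes.

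Slc7a1 (chromosome 5, 148264220 to 148336714, minus strand) is the carrier for arginine and lysine (CAT-1). It had the largest fitted change among the 10 carriers tested of the 37 genes in DOX against Control, with Slc38a3 (−1.23 on the log2 scale) close to it in size. It stood at 2.20, 2.58, 3.31, 3.20 and 3.34 FPKM in Control and at 5.62, 5.62, 5.88, 9.34 and 6.31 FPKM in DOX. The Tb libraries spanned 2.25 to 6.04 FPKM with a median of 3.61 FPKM, and in Tb-DOX it stood at 2.89, 3.25, 3.01, 3.12 and 3.80 FPKM. Every DOX library was above every Control and every Tb-DOX library, and Tb-DOX lay within the range of Tb. It rose 2.48-fold, with a log2 fold change of 1.31 ± 0.22 in DOX against Control (edgeR adjusted p = 0.000157), and was −0.24 ± 0.21 in Tb-DOX against Tb (adjusted p = 0.565), with a 95% interval of −0.65 to 0.17. The interaction was −1.55 ± 0.31 (adjusted p = 0.0104). It was kept in all 21 fits that left out 1 library, and was −1.32 (adjusted p = 0.00255) without both DOX-5 and Tb-5.

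Slc3a2 (chromosome 19, 8684246 to 8700733, minus strand) encodes the heavy chain 4F2hc (CD98), which carries several SLC7 light chains to the cell surface. It stood at 7.62, 6.15, 9.07, 6.19 and 6.15 FPKM in Control and at 10.24, 13.5, 17.8, 17.4 and 8.60 FPKM in DOX. In Tb it ran from 8.40 to 20.15 FPKM with a median of 13.4 FPKM, and in Tb-DOX it stood at 10.97, 14.06, 11.57, 15.5 and 11.74 FPKM. The means were 7.04 ± 1.30 FPKM (SD) in Control and 13.5 ± 4.13, 14.2 ± 4.73 and 12.8 ± 1.93 FPKM in DOX, Tb and Tb-DOX, and 1 Control library, Control-3, was above the lowest of DOX and of Tb. Its log2 fold change was 1.08 ± 0.21 in DOX against Control (edgeR adjusted p = 0.000636) and −0.17 ± 0.20 in Tb-DOX against Tb (adjusted p = 0.677), and the interaction was −1.25 ± 0.29 (adjusted p = 0.0181). In Tb against Control it was 0.98 ± 0.21 (adjusted p = 0.00393), a comparison that shares the Control libraries with the first and the Tb libraries with the second. The interaction was kept in all 21 fits that left out 1 library but had an adjusted p of 0.0551 with limma on log2(FPKM + 0.1).

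Of the light chains that pair with Slc3a2, Slc7a5 (LAT1, large neutral amino acids) was low, at 0.48 to 2.53 FPKM, and passed in no comparison, with 0.42 ± 0.34 in DOX against Control. Slc7a11, the cystine carrier, had at most 12 reads in each Control, DOX and Tb-DOX library and 7 to 59 in Tb, the highest in Tb-5. Among carriers outside the 37 genes, Slc7a6 (y+LAT2), another such light chain, rose by 1.28 ± 0.36 on the log2 scale in DOX against Control (edgeR adjusted p = 0.00828), with 14.76 FPKM in DOX-5, and Slc7a7 (y+LAT1), also a light chain, fell by 1.10 ± 0.33 (adjusted p = 0.0129), a gene named after its values were seen.

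Slc38a2 (SNAT2, chromosome 15, 96585273 to 96597611, minus strand), the carrier of small neutral amino acids that cells raise when amino acids run short, was the most abundant of the class. It stood at 35.27, 27.09, 24.02, 25.5 and 26.49 FPKM in Control and at 40.92, 44.00, 51.19, 51.04 and 75.42 FPKM in DOX. Its range in Tb was 26.18 to 75.24 FPKM with a median of 32.0 FPKM, and in Tb-DOX it stood at 30.72, 20.35, 33.92, 41.45 and 50.39 FPKM. Every DOX library was above every Control library, while Tb and Tb-DOX overlapped. The log2 fold change was 1.06 ± 0.28 in DOX against Control (edgeR adjusted p = 0.00515) and −0.17 ± 0.26 in Tb-DOX against Tb (adjusted p = 0.758). The interaction was −1.23 ± 0.38 (adjusted p = 0.0465). That call was lost in 13 of the 21 fits that left out 1 library, and was −0.70 (adjusted p = 0.0671) without both DOX-5 and Tb-5.

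Slc6a6 (chromosome 6, 91661034 to 91736047, plus strand), the carrier that concentrates taurine in heart muscle, was the member that rose with doxorubicin in both states. It stood at 15.28, 12.56, 12.45, 12.00 and 12.17 FPKM in Control and at 27.08, 26.88, 22.52, 24.98 and 21.96 FPKM in DOX. The Tb libraries spanned 10.95 to 22.87 FPKM with a median of 14.1 FPKM, and in Tb-DOX it stood at 19.93, 18.61, 23.55, 31.24 and 23.61 FPKM. DOX and Control did not overlap, and 5 of the 6 Tb libraries were below all of Tb-DOX, Tb-6 being the exception. On the log2 scale the change was 1.08 ± 0.14 in DOX against Control (edgeR adjusted p = 1.59e-05) and 0.63 ± 0.13 in Tb-DOX against Tb (adjusted p = 0.0108). Both calls were kept in all 21 fits that left out 1 library. The interaction was −0.45 ± 0.19 (adjusted p = 0.132), with a 95% interval of −0.83 to −0.07, so a smaller rise in tumor-bearing mice was not shown at the threshold.

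**Figure D5:**
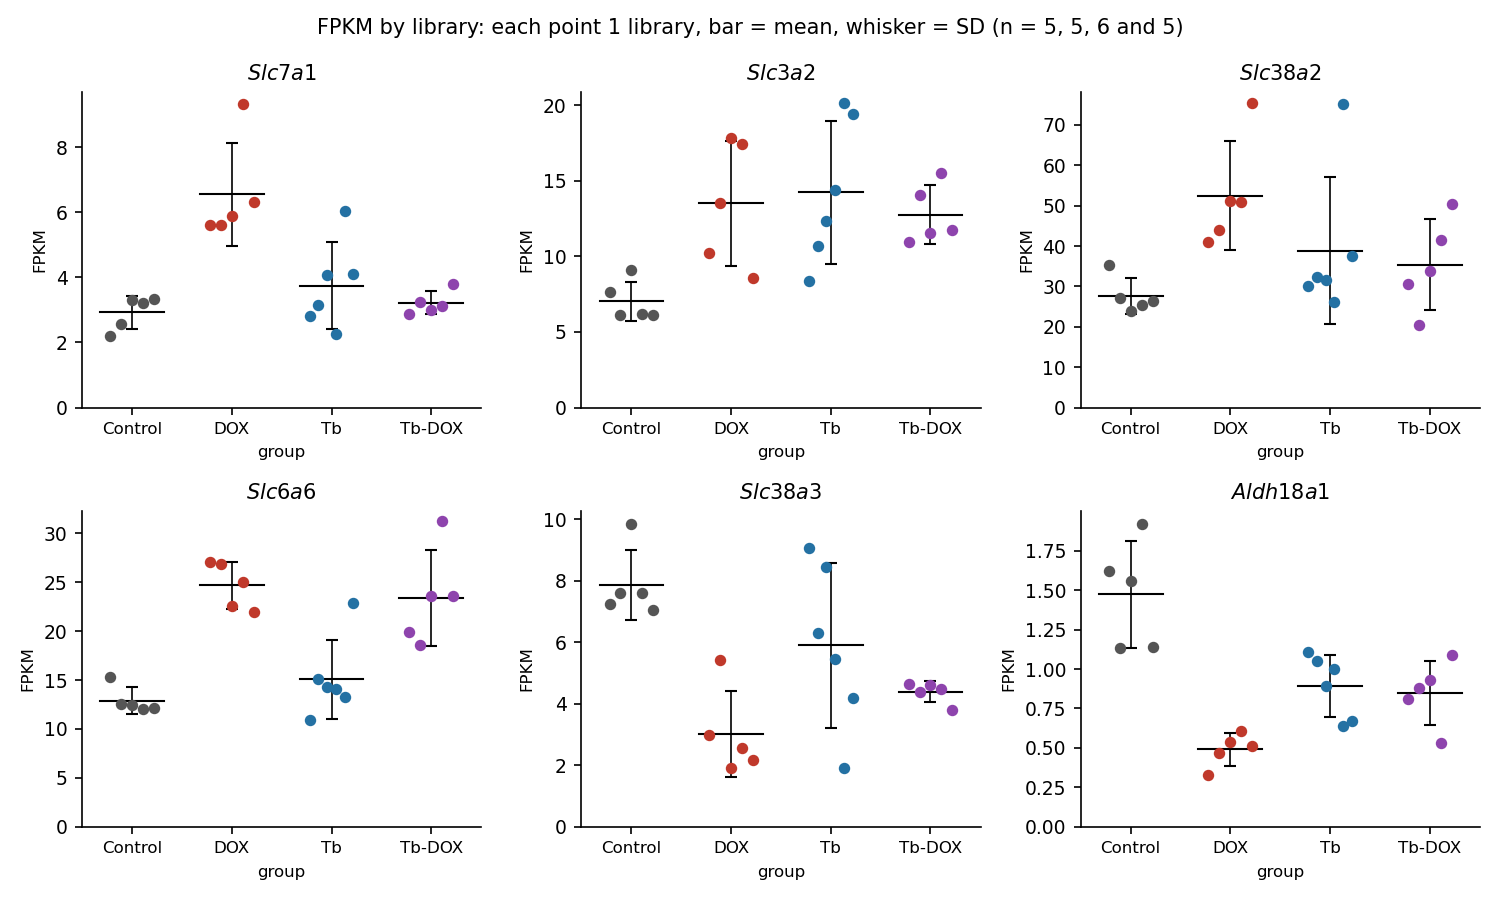
FPKM of 5 amino acid carriers and of Aldh18a1 in each library of Control, DOX, Tb and Tb-DOX (n = 5, 5, 6 and 5), with bars at the mean and whiskers of 1 SD. Slc7a1 in DOX (5.62 to 9.34 FPKM) lies above Control and Tb-DOX, Slc6a6 is high in both doxorubicin groups, and Slc38a3 and Aldh18a1 are lowest on average in DOX.

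Slc38a3 (SNAT3, chromosome 9, 107527833 to 107546729, minus strand), which moves glutamine in exchange for protons, went the other way. It stood at 7.25, 7.60, 9.85, 7.62 and 7.04 FPKM in Control and at 3.0, 5.43, 1.91, 2.56 and 2.18 FPKM in DOX. In Tb it ran from 1.91 to 9.08 FPKM with a median of 5.88 FPKM, and in Tb-DOX it stood at 4.66, 4.40, 4.62, 4.48 and 3.80 FPKM. Every DOX library lay below every Control library, and the Tb libraries reached into the ranges of both. Its log2 fold change was −1.23 ± 0.30 in DOX against Control (edgeR adjusted p = 0.00338) and −0.43 ± 0.28 in Tb-DOX against Tb (adjusted p = 0.420). Its interaction, 0.79 ± 0.41, did not pass (adjusted p = 0.202).

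Slc38a1 (SNAT1), a glutamine carrier of the same family, rose by 0.79 ± 0.15 on the log2 scale without a tumor (edgeR adjusted p = 0.00039), from 0.70 to 0.96 FPKM in Control to 1.2 to 1.46 FPKM in DOX, with no overlap. It had 0.28 ± 0.14 in Tb-DOX against Tb (adjusted p = 0.254). Slc38a4, which carries neutral and cationic amino acids, had −0.37 and −0.55 in the doxorubicin comparisons and passed in neither. Slc1a4 and Slc1a5, the sodium-dependent exchangers of alanine, serine, cysteine and glutamine, had 0.24 and 0.03 in DOX against Control. The 95% interval of Slc1a5, −0.19 to 0.25, was the narrowest of the 30. The glycine carrier Slc6a9 had 6 to 49 reads a library and the arginine carrier Slc7a3 0 to 10 reads. Without the minimum level their log2 fold changes in DOX against Control were 0.48 ± 0.41 and 0.85 ± 1.19, and neither passed.

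Tumor-bearing mice differed from mice without a tumor in few members. In Tb against Control 3 of 30 passed, Asns and Slc3a2 upward and Aldh18a1 downward, against 6.28% of all genes tested (5.0% upward and 1.29% downward). Aldh18a1 was the member whose libraries did not overlap, as they did not for 5.73% of all genes. Without both DOX-5 and Tb-5, Slc3a2 alone passed (0.81, edgeR adjusted p = 0.00308). In Tb-DOX against DOX 2 of 30 passed, against 17.5% of all genes (9.52% upward and 7.93% downward): Slc7a1 was lower by 1.22 ± 0.22 on the log2 scale (adjusted p = 0.000712) and Nupr1 was higher by 0.86 ± 0.29 (adjusted p = 0.0447). The Nupr1 call was lost in 11 of the 21 fits that left out 1 library. Without Tb-5 the count in Tb-DOX against DOX was 8, and without both it was 6, with Ppp1r15a and Slc38a2 lower and Cebpg, Nupr1 and Vldlr higher in Tb-DOX beside Slc7a1. The share of 17.5% belongs to the fit of all libraries. Shares of all genes in the comparisons with libraries left out are not given here. These comparisons share their libraries with the doxorubicin comparisons.

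Of 13 genes for eIF2alpha and its kinases, for eIF2B, the exchange factor that phosphorylated eIF2alpha blocks, and for proteins that relay or end the signal, 3 rose and 3 fell in DOX against Control, where 18.0% of all genes rose and 18.2% fell, and none passed in Tb-DOX against Tb. The same shares of all genes apply to the DOX against Control counts of the lists below. Eif2ak4, which encodes GCN2, the sensor of uncharged tRNA, rose by 1.09 ± 0.24 (edgeR adjusted p = 0.00151), from a mean of 1.60 FPKM to 3.10 FPKM, and its interaction was −1.26 ± 0.33 (adjusted p = 0.0267). Oma1, the protease that passes mitochondrial stress to this pathway, fell by 0.72, and Eif2b3 rose by 0.61. Eif2b5, the most abundant, rose from a mean of 19.0 FPKM to 23.3 FPKM.

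Of 20 cytosolic aminoacyl-tRNA synthetases, many of them ATF4 targets, 7 rose and none fell in DOX against Control, and none passed in Tb-DOX against Tb, with median log2 fold changes of 0.18 and 0.05 against 0.00 and −0.02 for all genes. Eprs rose by 0.73 ± 0.11 (edgeR adjusted p = 7.48e-05), Kars by 0.56 ± 0.08 (adjusted p = 2.26e-05) and Hars by 0.45. The interaction passed for Eprs (−0.89 ± 0.16, adjusted p = 0.00769) and Kars (−0.51 ± 0.11, adjusted p = 0.0129). Gars, the most abundant at 24.3 FPKM, had 0.20 (adjusted p = 0.154).

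Of 21 other ATF4 target genes tested, 3 rose and 5 fell in DOX against Control, and 1 fell in Tb-DOX against Tb, against 2.54% of all genes. Without Tb-5, 4 rose and 5 fell in the former comparison, and 1 rose and 1 fell in the latter. Cth, which makes cysteine, rose by 1.68 ± 0.39 (edgeR adjusted p = 0.00209), while Aldh1l2, the mitochondrial folate dehydrogenase, fell by 1.54 and Gpt2, the mitochondrial alanine aminotransferase, by 1.07. Gpt2 also fell with a tumor, by 0.75 (adjusted p = 0.0215). Got1, the most abundant at 307.3 FPKM, rose by 0.68 (adjusted p = 0.00085). Of 13 other amino acid carriers tested, 4 rose and 6 fell without a tumor, with Slc36a2, a proton-coupled carrier of glycine and proline, at −1.49 and Slc43a1, a carrier of large neutral amino acids, at 1.27. Slc38a10, the most abundant at 8.87 FPKM, had −0.15 (edgeR adjusted p = 0.142). With a tumor 1 rose, against 2.18% of all genes, Slc43a2 (0.66 ± 0.13, adjusted p = 0.00576).

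Of 18 endoplasmic reticulum chaperones and targets of ATF6 and XBP1, 1 rose and 6 fell in DOX against Control, against 18.2% of all genes that fell, and 7 fell in Tb-DOX against Tb, against 2.54%. In DOX against Control the secreted chaperone-like Creld2 fell by 1.01 and Pdia4 by 0.94. Pdia6, like Pdia4 a protein disulfide isomerase, fell in both states, by 0.84 ± 0.09 (edgeR adjusted p = 2.81e-06) and by 0.70 ± 0.09 (adjusted p = 0.000179). In Tb-DOX against Tb the lectin chaperone Calr fell by 0.67 and the co-chaperone Dnajc3, which had 0.48 in DOX against Control (adjusted p = 0.0281), by 0.61. Hspa5 (BiP), the most abundant at 121.4 FPKM, had 0.15 and −0.28 and passed in neither. Of 9 genes of the mitochondrial unfolded protein response, 2 fell without a tumor, Hspd1 (−0.74 ± 0.17, adjusted p = 0.0018) and Hspe1 (−0.43), which form the matrix chaperonin. None passed with a tumor, though 1 of the 9 fell when Tb-5 was left out. Hspa9, the most abundant, had −0.04.

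Of 12 p53 targets, 4 rose and 1 fell without a tumor, so 5 passed where 36.2% of all genes did, and none passed with one. Without Tb-5, Cdkn1a also rose in Tb-DOX against Tb, by 1.46 ± 0.36 on the log2 scale (edgeR adjusted p = 0.0190). The cell cycle inhibitor Cdkn1a rose by 2.65 ± 0.64 (edgeR adjusted p = 0.00293), Trp53inp1 by 2.18 ± 0.46 (adjusted p = 0.00107) and Fas by 0.76, and Ccng1, the most abundant, fell by 0.57. The interaction of Trp53inp1 was −2.25 ± 0.62 (adjusted p = 0.0312), and −1.54 (adjusted p = 0.0275) without Tb-5. Cdkn1a and Trp53inp1 were, like Atf3, higher in Tb-5 than in any other library of the series, at 73.36 and 31.5 FPKM. Of the 12 immediate early genes, whose most abundant member is Ier3 (26.7 FPKM), 2 rose in DOX against Control, against 18.0% of all genes, Nr4a1 (2.12 ± 0.74, edgeR adjusted p = 0.0296) and Socs3 (2.04 ± 0.72, adjusted p = 0.0307), and Jun fell by 1.09 (adjusted p = 0.00494). Without Tb-5, 3 of the 12 rose and 3 fell in DOX against Control. In Tb-DOX against Tb, 1 fell, against 2.54% of all genes: Fosb had −4.88 (adjusted p = 0.0383), and −0.99 (adjusted p = 0.484) without Tb-5. The interaction passed for Socs3, at −3.37 (adjusted p = 0.0308), and at −2.07 (adjusted p = 0.0207) without Tb-5, where Jun passed as well, at 0.85 (adjusted p = 0.0296). Of the same genes, 5 passed upward in Tb against Control, against 5.0% of all genes, led by Fosb, Socs3 and Fos (4.77, 4.67 and 3.78 on the log2 scale). Without Tb-5 it was 2, and the values were 0.89 for Fosb (edgeR adjusted p = 0.617), 3.37 for Socs3 (adjusted p = 6.8e-06) and 1.10 for Fos (adjusted p = 0.265). Fosb stood at 15.51 FPKM in Tb-5 and at 0 to 0.45 FPKM in the other Tb libraries, and Fos at 74.55 FPKM against 0.45 to 6.09 FPKM.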

How the data were processed

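RNA was sequenced from 21 libraries in 4 groups. The labels number the replicates but do not say that each is a separate animal, so p-values measure the spread between these samples. The authors trimmed reads with cutadapt, checked them with FastQC, aligned them with HISAT2 to GRCm39 and counted them with HTSeq 0.6.1. The deposited table holds raw read counts per gene and FPKM values, which equalled the count per kilobase of exon scaled to the library's total count, within 0.0051, in 100% of values. The labels describe selection with oligo(dT) or removal of ribosomal RNA, and the study's methods name oligo(dT) beads. The strand setting of the counting is not given in the sources used here, so reads of overlapping genes may not be told apart.

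Genes with a mean of at least 0.5 FPKM were tested on counts with edgeR 4.0.16 in R 4.3.3 (TMM scaling, quasi-likelihood test, all 4 groups in 1 fit, two-sided, Benjamini-Hochberg adjustment over all genes tested, limit 0.05). Errors of fold changes are SE, taken as the size of the log2 fold change over the square root of the test's F statistic. The 95% intervals use a normal quantile with that SE. They are therefore approximate and somewhat narrower than the test itself would give. No count column was left out. On simulated counts for 13990 genes, 100 were changed by 1 on the log2 scale, 100 by 2 and the rest not at all. The fit of DOX against Control recovered 71% and 94% of these, with 5 false calls. Far fewer genes were changed there than passed in the data (36.2%), so these shares do not measure the power of the reported test. The alternatives were other scaling, filters and limits, DESeq2 1.42.0, limma 3.58.1 on log2(FPKM + 0.1) and log2(FPKM + 1), a replicate block, fits to only the groups compared, and leaving out each library. Counts of replicates differed beyond sampling noise (chi-square divided by its degrees of freedom at least 5.95), so none were counted as 1 library.

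The 37 genes, the roles and the pathway and marker lists were chosen with earlier results of these data known. The values of every library (for the 6 of Tb, the lowest, median and highest) are given for Atf4, Ddit3, Trib3 and Asns, and for each of the 37 that passed with a change of at least 1 on the log2 scale in a doxorubicin comparison or the interaction. From each pathway list the most abundant gene and up to 3 that passed with the largest changes in the comparison described are named, and any others were named after their values were seen. Promoter windows are RefSeq's on GRCm38.p6 and were not joined to the table's coordinates.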

Additional observations from a re-analysis of the deposited data

Results flagged for a closer look

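In 17 of 120 combinations of a gene and a group, 1 library lay apart from the rest of its group by Dixon's criterion at the 95% level, where chance alone gives about 6. Of these, 7 were Tb-5: Atf3 (81.69 FPKM), Atf4 (97.51) and Slc38a2 (75.24) were high, and Ddit3 (5.42), Cebpg (4.18), Vldlr (22.74) and Stc2 (0.91) were low. Tb-5 was also the highest Tb library for 20.6% and the lowest for 43.5% of all genes tested. The criterion was not run over all genes, so the count of 17 is not shown to be particular to the members. In the other DOX and tumor-bearing libraries, Atf3 was high in DOX-5 (66.35 FPKM), Slc7a1 in DOX-4 (9.34), Atf5 in Tb-6 (12.34) and Atf4 in Tb-DOX-4 (46.9), while Trib3 was low in Tb-1 (0.37), and Mthfd2 (0.29) and Slc38a3 (3.8) in Tb-DOX-5. In Control, Atf5 (17.59 FPKM) and Slc38a3 (9.85) were high in Control-3, the library with the most erythroid marker RNA of its group, and Slc6a6 in Control-1 (15.28).

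The effect of doxorubicin differed between mice with and without a tumor, by the interaction in the edgeR fit, for 6 genes: Atf3 (−5.79 on the log2 scale), Ppp1r15a (−2.27), Slc7a1 (−1.55), Slc3a2 (−1.25), Slc38a2 (−1.23) and Aldh18a1 (1.38). Without DOX-5 and Tb-5, the interactions of Atf3 and Slc38a2 did not pass and those of the other four did.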

How the results depend on the processing

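The count of members that passed in DOX against Control, 12, was 7 with a change of at least 1 on the log2 scale, and 10 to 14 when each library was left out in turn. In Tb-DOX against Tb, 1 passed: 2 with DESeq2 or without DOX-5 and Tb-5, 0 at an adjusted p under 0.01 or with the fold limit, and 1 to 2 with a library left out. The 6 interactions were 3 with a mean of at least 5 FPKM, with limma on log2(FPKM + 0.1) or log2(FPKM + 1), or with a replicate block, 0 at an adjusted p under 0.01, and 3 to 6 with a library left out. The 3 of Tb against Control were 1 with a mean of at least 5 FPKM, with only the groups compared, with the replicate block, without DOX-5 and Tb-5, at an adjusted p under 0.01 or with the fold limit, and 1 to 4 with a library left out. The 2 of Tb-DOX against DOX were 6 with library totals, limma on log2(FPKM + 0.1) or without DOX-5 and Tb-5, 5 with DESeq2, limma on log2(FPKM + 1) or only the groups compared, 1 with a mean of at least 5 FPKM, at an adjusted p under 0.01 or with the fold limit, and 1 to 8 with a library left out. The cause was not tested. Counts over all genes moved too. In Tb-DOX against DOX, 2442 genes passed as reported, 2858 with library totals and 2877 with DESeq2. With limma on log2(FPKM + 0.1) and log2(FPKM + 1) it was 2758 and 2653. In Tb-DOX against Tb, 660 passed as reported and 1074 with DESeq2. The interaction passed for 1251 genes as reported, and for 1021 and 948 with limma at the same offsets. Shares of all genes in the other fits are not given here. Without DOX-5 and Tb-5, 7 members that had not passed in Tb-DOX against Tb changed sign: Atf3 to 0.14, Atf4 to 0.13, Ddit3 to −0.0163, Ppp1r15a to 0.0934, Slc7a1 to 0.0007, Slc7a5 to 0.15 and Slc38a2 to 0.19. With 1 library left out, the same comparison ran from −3.02 to 0.14 for Atf3, −0.45 to 0.13 for Atf4, −0.0189 to 0.23 for Ddit3, −1.16 to 0.0974 for Ppp1r15a, −0.20 to 0.0827 for Aldh18a1, −0.36 to 0.0057 for Slc7a1, −0.28 to 0.0022 for Slc3a2 and −0.36 to 0.19 for Slc38a2, and Trib3 in DOX against Control from −0.33 to 0.0627. Same-numbered libraries did not deviate together (correlations of −0.261 to 0.234 over 30 pairs), so the numbers were not taken as pairs. With the block the interaction of Aldh18a1 was 1.29 (adjusted p = 0.0534).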
